A study of Mus musculus with 16 samples.

Results

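The comparison described here set fibro/adipogenic progenitors (FAPs) without the interleukin-4 receptor alpha chain against wild-type FAPs while both were exposed to interleukin-4 (IL-4). Its members were the 4 arrays of knockout cells with IL-4 and the 4 arrays of wild-type cells with IL-4, chosen by their titles, that is 8 of the 16 arrays of the series, with all 25697 probes. FAPs are mesenchymal cells of the muscle interstitium, here plated from the skeletal muscle of Balb/cJ mice, and the cells carried either the IL4RA -/- genotype or the wild-type one. All 8 cultures received recombinant IL4, and the other 8 arrays held the same pair of genotypes given vehicle. The labels state 4 biological replicates per condition. The sources used here do not give the animals' age and sex or the dose and duration of IL-4. The labels speak of knockout mice and name no promoter, Cre or clone.

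IL-4 binds its receptor alpha chain, which pairs either with the common gamma chain or with the interleukin-13 receptor alpha 1 chain. The kinases bound to these chains then phosphorylate the transcription factor STAT6, which enters the nucleus and turns on genes such as chemokines and feedback inhibitors of the pathway. In muscle, FAPs are known as a source of matrix and of factors that act on regenerating fibres, and as cells that can turn into fibroblasts or adipocytes. Cells without the alpha chain are known to be unable to respond to IL-4 or to IL-13.

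Values were fluorescence on a log2 scale, from 7.72 to 14.77, so a difference of 1 is a 2-fold change. Of the probes, 57% had a mean within 0.15 of the lowest value and were close to the floor of the scale. Replicate arrays correlated at r = 0.9943 to 0.9976 within groups. Along the first principal component, with 60.3% of the variance, the wild-type arrays with IL-4 lay at 18.71 to 20.81, apart from the knockout arrays with IL-4 at -7.95 to -7.64. The vehicle arrays lay between -8.15 and -4.10. On the third component, with 5.4% of the variance, knockout vehicle replicates 2 and 3 stood at -6.95 and -7.52, and the vehicle counts are given without them too. The targeted gene could not serve as a check of genotype, since none of the named probes was for Il4ra, which was not analysed here.

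Under IL-4, 3830 of 25697 probes (14.9%) differed between the genotypes at an adjusted p below 0.05 by limma, 1979 higher (7.7%) and 1851 lower (7.2%) in the knockout. Past 1.5-fold there were 184 higher probes (0.716%) and 209 lower ones (0.813%). The differences past 2-fold were fewer, at 43 higher probes (0.167%) and 79 lower probes (0.307%). With the brightest probe standing for each gene, 1511 of 16593 genes were higher (9.11%) and 1357 lower (8.18%). These shares are set beside the gene lists below, but 8842 of the 16593 genes had a mean near the floor. Many lists held fewer such genes, the respiratory chain list for example 2 of 35. Among 12040 probes past a filter on dim ones, 2171 were higher and 2006 lower, larger shares than over all probes. A list of bright genes with shares modestly above the background is therefore not set apart from bright probes in general. The arrays of the groups did not overlap for 3217 genes (19.4%), or 4411 probes (17.2%), and 2868 genes were called in all (17.3%). The median size of a called difference was 0.24, so most calls were small. Since RNA was taken from whole cultures, fewer cells of one kind and less RNA per cell cannot be told apart. P-values rest on 1 spread per probe, pooled over the 4 groups of all 16 arrays, the vehicle cultures included. For Car4 the SD was 0.1461 in the wild type with IL-4 and 0.0147 in the knockout with IL-4. In the knockout and wild-type vehicle groups it was 0.0045 and 0.0184, so groups at the floor draw down the SE and p-value of such a gene.

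The genes lowest in the knockout relative to the wild type ranged from one at the floor in the knockout, Car4, to ones that were still bright there. Car4, a membrane-bound carbonic anhydrase, read 7.84, 7.86, 7.83 and 7.85 on the knockout arrays and 11.95, 12.07, 12.26 and 12.25 on the wild-type arrays. All 4 knockout arrays thus lay at the floor, and the difference of -4.29 ± 0.05 (SE, n = 4 per group, adjusted p = 1.78e-16, 19.5-fold lower) was the largest among named genes. Daglb, a lipase that makes the endocannabinoid 2-arachidonoylglycerol, read 8.95, 8.98, 9.0 and 8.98 in the knockout against 11.98, 12.42, 12.47 and 12.55 in the wild type, with a difference of -3.37 ± 0.10 (adjusted p = 4.32e-12). Pcolce2, which enhances the trimming of procollagen, read 8.22, 8.15, 8.25 and 8.10 against 10.85, 10.80, 10.79 and 10.81 (-2.63 ± 0.03, adjusted p = 3.78e-16). Aif1l, an actin-binding protein, read 8.08, 8.03, 8.09 and 8.02 against 10.52, 10.61, 10.68 and 10.52 (-2.53 ± 0.03). For each of these genes every knockout array was below every wild-type array by more than the spread within either group. Groups that do not overlap were a condition for choosing these genes. A gene near the floor can have a larger true difference than the one measured.

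**Figure D1:**
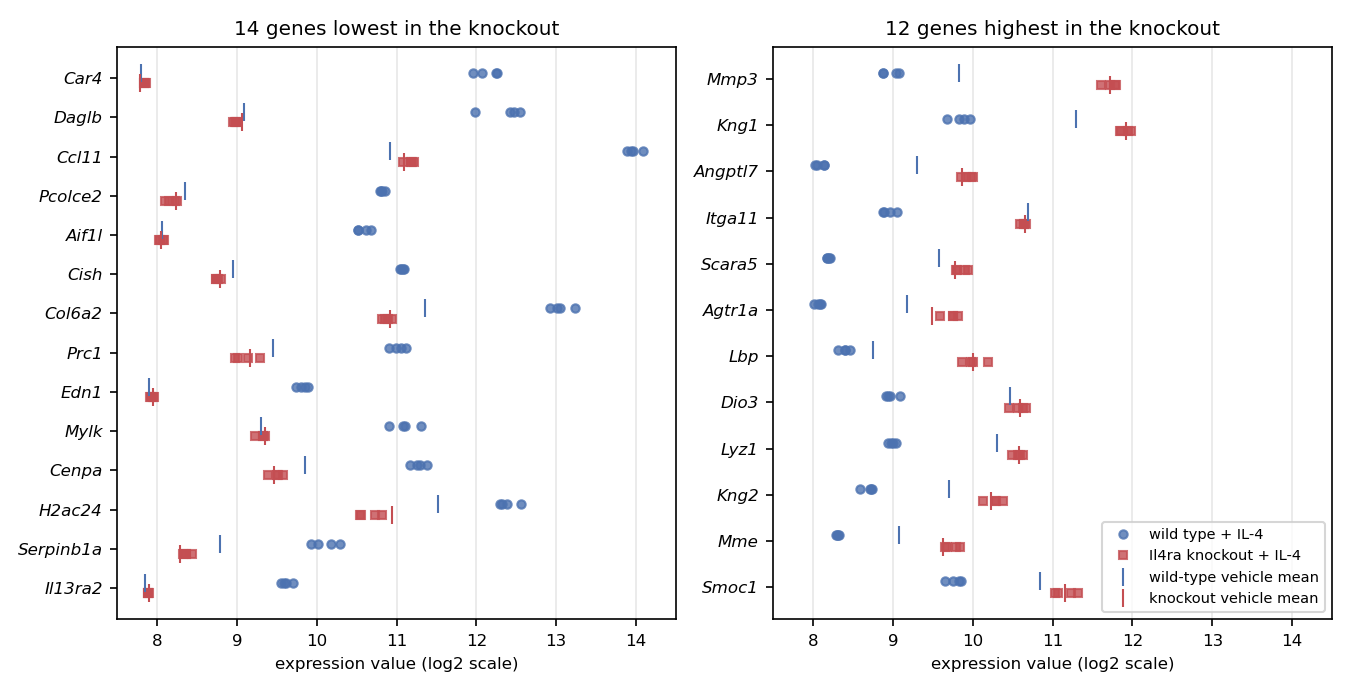
Expression values on the log2 scale (horizontal axis) of the 14 genes lowest and the 12 highest in the knockout under IL-4, with blue circles for the 4 wild-type arrays with IL-4, red squares for the 4 knockout arrays with IL-4 and vertical ticks for the vehicle means. Only genes whose circles and squares do not overlap were eligible, so the lack of overlap follows from the choice of genes. Car4 lay at 7.84 ± 0.01 in the knockout and 12.13 ± 0.15 in the wild type (SD, n = 4).

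Several genes known to answer IL-4 through STAT6 were lower in the knockout. Ccl11, or eotaxin, the chemokine that draws eosinophils, read 11.08, 11.18, 11.22 and 11.19 in the knockout and 13.96, 14.09, 13.94 and 13.88 in the wild type. Its difference was -2.80 ± 0.09 (adjusted p = 1.65e-11, 6.96-fold lower), although the knockout cultures still gave a bright signal. Cish, a feedback inhibitor of cytokine receptors that signal through STAT proteins, read 8.74, 8.76, 8.73 and 8.80 against 11.04, 11.05, 11.08 and 11.09 (-2.31 ± 0.03, adjusted p = 9.71e-16). Every knockout array lay more than 2 log2 units below every wild-type array for Cish. Il13ra2, the decoy receptor for IL-13, read 7.88, 7.89, 7.89 and 7.89 in the knockout, just above the floor, and 9.55, 9.70, 9.61 and 9.58 in the wild type (-1.72 ± 0.03, adjusted p = 2.17e-15).

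The list of 34 measured IL-4 and STAT6 target genes held 9 lower and 3 higher members, with a median of -0.01, so most of its members did not pass. The lower ones were Ccl11, Cish, Il13ra2, Ccl7 at -0.70, Socs2 at -0.36, Klf4 at -0.31, Tgm2 at -0.30, Ccl8 at -0.28 and Socs1 at -0.07, and the calls of Ccl8 and Socs1 were lost without knockout replicate 1 (adjusted p = 0.106 and 0.136). Il1rn, the antagonist of interleukin-1, went the other way: it read 8.94, 9.02, 9.05 and 8.85 in the knockout and 8.20, 8.03, 8.17 and 8.29 in the wild type (0.79 ± 0.08, adjusted p = 2.79e-06), on 1 of its 3 probes. Socs3, a feedback inhibitor of the interleukin-6 family, was higher by 0.33 (adjusted p = 0.0038). It was also higher by 0.31 under vehicle (adjusted p = 0.0305), with a difference between conditions of 0.02 (adjusted p = 0.948). That vehicle call was lost without knockout vehicle replicates 2 and 3 (adjusted p = 0.113). Arg1, an arginase that marks IL-4-treated macrophages, differed by -0.03 (adjusted p = 0.26) and was not called.

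Of 15 measured receptor chains and kinases, 2 were lower and 2 higher. Il13ra2 led the lower ones, with Jak2, a receptor-bound kinase, at -0.23 on 1 of its 3 probes, a call lost without knockout replicate 1 (adjusted p = 0.0558). Shc1, an adaptor of receptor kinases, was higher by 0.43 on 1 of its 4 probes, and Pik3r1, the regulatory subunit of phosphoinositide 3-kinase, was higher by 0.43. Stat6 itself differed by -0.08 (adjusted p = 0.35) and Il13ra1 by 0.03 (adjusted p = 0.69), neither of which passed the threshold. The 16 measured feedback inhibitors held 4 lower members (Cish, Socs2, Socs4 and Socs1) and 2 higher ones (Pias1 and Socs3). Socs4 stood at -0.14 and Pias1 at 0.15. Among 17 other settings, the call of Pias1 was lost in 7 and that of Socs1 in 8.

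The promoters of 3 genes low in the knockout show letters that the STAT family is known to bind, a palindrome of TTC and GAA with 3 bases between for most members and 4 for STAT6. They were chosen for display because they hold a match, and are shown in lower case with the matching letters in capitals, from RefSeq on GRCm38.p6, over 250 bases before to 50 after the annotated start. The Cish window is chr9:107296409-107296708 on the plus strand and holds 2 matches to TTCNNNGAA. The Edn1 window is chr13:42301226-42301525 on the plus strand with 1 match to TTC and GAA 4 bases apart, and the Pcolce2 window is chr9:95637378-95637677 on the plus strand with 1 match to TTCNNNGAA.
Cish: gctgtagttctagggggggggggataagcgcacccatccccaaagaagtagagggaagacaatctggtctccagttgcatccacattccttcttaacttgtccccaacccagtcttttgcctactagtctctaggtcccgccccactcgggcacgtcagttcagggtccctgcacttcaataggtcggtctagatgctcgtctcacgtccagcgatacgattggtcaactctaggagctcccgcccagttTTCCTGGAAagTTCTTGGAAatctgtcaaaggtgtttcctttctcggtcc
Edn1: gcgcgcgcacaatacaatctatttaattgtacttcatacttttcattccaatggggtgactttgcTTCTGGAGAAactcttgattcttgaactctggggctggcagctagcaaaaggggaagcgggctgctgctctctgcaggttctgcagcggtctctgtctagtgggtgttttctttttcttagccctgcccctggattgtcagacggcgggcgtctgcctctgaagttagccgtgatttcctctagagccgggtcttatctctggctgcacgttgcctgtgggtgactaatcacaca
Pcolce2: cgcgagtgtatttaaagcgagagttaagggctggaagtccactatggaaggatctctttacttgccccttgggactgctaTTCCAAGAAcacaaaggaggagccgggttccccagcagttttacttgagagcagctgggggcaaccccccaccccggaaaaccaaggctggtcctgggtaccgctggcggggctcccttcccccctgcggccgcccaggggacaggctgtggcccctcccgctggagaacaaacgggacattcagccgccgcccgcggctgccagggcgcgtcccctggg

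These matches are a description of letters only. Searched on both strands, TTC and GAA with 4 bases between were in 6.33% of all 16535 windows and TTCNNNGAA was in 7.77%. Among the 61 windows of genes lower by 2-fold or more the shares were 6.56% and 9.84%, and among the 31 windows of genes higher by 2-fold or more they were 3.23% and 6.45%. Of the 61 genes lower by 2-fold or more (0.368% of genes) 48 had a window, and of the 34 higher ones (0.205%) 24 had one.

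Genes of DNA replication and cell division were lower in the knockout across most of their lists. Of 47 measured genes of the replication fork and the entry into S phase, 35 were lower and 0 higher, with a median difference of -0.38, against a background of 8.18% lower. Mcm5, a subunit of the replicative helicase, read 8.45, 8.52, 8.49 and 8.45 in the knockout and 9.80, 9.73, 9.88 and 9.72 in the wild type (-1.30 ± 0.03, adjusted p = 4.07e-13). Ccnd1, the cyclin D1 that drives cells out of G1, read 9.93, 10.06, 10.01 and 10.03 against 11.07, 11.21, 11.40 and 11.14 (-1.20 ± 0.07, adjusted p = 7.65e-09). Neither gene's groups overlapped. Mcm4 was lower by -1.08 on 1 of its 3 probes, and Mcm2, Mcm3 and Mcm6, further subunits of that helicase, were lower by -0.63, -0.40 and -0.63. Tyms, which makes thymidylate, stood at -0.98, Fen1, the flap endonuclease, at -0.96, and Rrm1 and Rrm2, the subunits of ribonucleotide reductase, at -0.52 and -0.44.

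Of 44 measured genes of G2 and mitosis, 32 were lower and 0 higher, with a median of -0.24. Prc1, which bundles microtubules at the midzone of the spindle, read 9.14, 9.28, 8.98 and 9.01 in the knockout and 10.99, 11.06, 11.12 and 10.90 in the wild type (-1.91 ± 0.06, adjusted p = 2.06e-11, 3.77-fold lower). Cenpa, the histone variant of centromeres, read 9.58, 9.52, 9.38 and 9.50 against 11.17, 11.29, 11.38 and 11.26 (-1.78 ± 0.05). Anln, a scaffold of the cytokinetic ring, was lower by -1.71, Birc5, or survivin, by -1.53, Plk1, a mitotic kinase, by -1.25, and Cdc20, an activator of the anaphase-promoting complex, by -1.21. Under vehicle, where other arrays were used and 236 genes (1.42%) were higher and 307 (1.85%) lower, 10 of the 44 mitosis genes and 5 of the 47 replication genes were lower and 0 higher. Without knockout vehicle replicates 2 and 3, these were 4 and 2 genes, among 138 higher and 161 lower genes in all. The test of the difference between conditions, which called 875 of all genes higher (5.27%) and 788 lower (4.75%), called 30 replication and 26 mitosis genes lower, and 0 higher in either list, and without those arrays 31 and 26.

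Inhibitors of the cell cycle did not move in one direction. Cdkn1c, or p57, an imprinted inhibitor of cyclin-dependent kinases, read 9.92, 10.14, 10.04 and 10.10 in the knockout and 8.91, 8.72, 8.77 and 8.75 in the wild type (1.27 ± 0.07, adjusted p = 9.25e-09). Cdkn2b, or p15, was higher by 0.62. Cdkn1a, or p21, and Mdm2, both targets of p53, were lower by -0.41 and -0.49. Of the 23 measured inhibitors and imprinted growth genes, 4 were higher and 6 lower.

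The windows of 3 cell-cycle genes carry letters that are known as sites of cell-cycle control: TTTGGCGC or TTTCCCGC, bound by E2F factors at replication genes, and TTTGAA, the cell-cycle homology region (CHR) of mitotic genes. The Mcm5 window (chr8:75109259-75109558, plus strand) is shown for the E2F letters, read here on the minus strand. A Prc1 window (chr7:80294201-80294500, plus strand) and the Cenpa window (chr5:30666636-30666935, plus strand) are shown for TTTGAA. Prc1 has a second, overlapping window with the same match, which is not shown.
Mcm5: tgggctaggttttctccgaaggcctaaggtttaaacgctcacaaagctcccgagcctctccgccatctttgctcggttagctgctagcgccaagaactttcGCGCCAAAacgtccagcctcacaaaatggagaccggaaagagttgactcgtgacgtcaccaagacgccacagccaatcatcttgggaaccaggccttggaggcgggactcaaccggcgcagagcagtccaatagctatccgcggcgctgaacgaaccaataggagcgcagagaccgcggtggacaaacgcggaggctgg
Prc1: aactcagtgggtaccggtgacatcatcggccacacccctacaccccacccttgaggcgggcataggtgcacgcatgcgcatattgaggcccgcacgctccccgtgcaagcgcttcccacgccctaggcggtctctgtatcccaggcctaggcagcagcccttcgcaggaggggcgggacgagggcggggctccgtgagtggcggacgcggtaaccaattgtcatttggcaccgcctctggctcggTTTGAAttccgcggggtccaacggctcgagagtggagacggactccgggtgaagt
Cenpa: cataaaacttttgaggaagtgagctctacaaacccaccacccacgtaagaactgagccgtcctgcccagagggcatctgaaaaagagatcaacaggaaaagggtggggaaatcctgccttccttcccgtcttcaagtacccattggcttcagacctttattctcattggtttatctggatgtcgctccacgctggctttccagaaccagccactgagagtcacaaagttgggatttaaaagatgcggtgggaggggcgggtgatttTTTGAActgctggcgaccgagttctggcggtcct

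The E2F letters were in 2.15% of all windows, in 23.9% of the 46 windows of replication genes and in 2.33% of the 43 windows of G2 and mitosis genes. They were in 3.28% of windows of genes lower by 2-fold or more and in 0% of those higher by 2-fold or more. TTTGAA, a short run that many windows hold, was in 14.9% of all windows, in 69.8% of the G2 and mitosis windows and in 6 of the 46 replication windows. It was in 31.1% of windows of genes lower by 2-fold or more and in 12.9% of those higher by 2-fold or more. The replication list had a window for 38 of 47 genes and the mitosis list for 38 of 44. Shares in these lists depend on which genes were listed and not on the array values. The genes lower by 2-fold or more include mitosis genes such as Prc1 and Cenpa, so that share is not independent. Overlapping windows of a gene are counted separately.

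Mmp3, or stromelysin 1, a metalloproteinase that degrades matrix, was the gene highest in the knockout: it read 11.60, 11.72, 11.78 and 11.79 there and 8.87, 9.07, 9.03 and 8.88 in the wild type. The means were 11.72 ± 0.08 and 8.96 ± 0.10 (SD, n = 4), the difference 2.76 ± 0.08 (adjusted p = 5.26e-12, 6.77-fold higher), and all 3 of its probes were higher. Mmp13, a collagenase, read 10.51, 10.45, 10.58 and 10.63 against 9.72, 9.73, 9.95 and 9.84 (0.73 ± 0.06), and Mmp9, a gelatinase, was higher by 0.71. Of the 24 measured metalloproteinases and inhibitors, 8 were higher and 1 lower, with a median of 0.03. Under vehicle 7 were higher and 0 lower, and 6 and 0 without knockout vehicle replicates 2 and 3.

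Col6a2, a chain of the beaded collagen VI of the interstitium, read 10.86, 10.81, 10.89 and 10.94 in the knockout and 13.23, 13.05, 12.93 and 13.01 in the wild type (-2.18 ± 0.06, adjusted p = 4.32e-12, 4.52-fold lower). Col6a1, its partner chain, was lower on all 3 probes, by -0.93 on the brightest. The third measured chain, Col6a6, differed by -0.01 (adjusted p = 0.72) close to the floor. Of 26 measured genes of fibrillar collagen and its processing, 7 were lower and 2 higher: the lower ones were enzymes and helpers, Pcolce2, Bmp1 (a procollagen proteinase, -0.78), Loxl4 (-0.68), Serpinh1 (a collagen chaperone, -0.44), Lox (-0.31), Plod3 (-0.28) and Loxl3 (-0.05). The 2 higher ones were Col16a1 at 0.46 and P4ha2 at 0.22, and the call of P4ha2 was lost in 7 of 17 other settings. Col1a1, the main chain of type I collagen, differed by 0.09 (adjusted p = 0.75) and was not called.

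Of 18 measured basement membrane genes, 8 were higher, 0 lower and the rest did not pass, with a median of 0.07. Nid2, a nidogen that ties laminin to collagen IV, read 10.73, 10.77, 10.88 and 10.68 in the knockout against 9.87, 9.64, 9.83 and 9.95 (0.94 ± 0.07, adjusted p = 1.18e-07). Col4a1 read 12.56, 12.26, 12.57 and 12.30 against 11.63, 11.59, 11.71 and 11.63 (0.78 ± 0.07), and Col4a2, the chain it assembles with, was higher by 0.63. Itga11, the collagen-binding integrin alpha 11, read 10.59, 10.64, 10.67 and 10.64 against 9.05, 8.87, 8.96 and 8.88 (1.69 ± 0.06, adjusted p = 2.14e-11). Of the 18 measured integrins and collagen receptors, 3 were higher and 3 lower.

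Of 26 measured proteoglycans and matricellular proteins, 10 were higher and 3 lower. Fbln1, a fibulin of elastic matrix, was higher by 1.15, Ccn2, or connective tissue growth factor, by 0.79, Dcn, or decorin, by 0.77, and Lum, or lumican, by 0.51. Tnc, a matrix protein of healing tissue, read 9.82, 9.74, 9.74 and 9.63 in the knockout and 10.89, 11.13, 10.82 and 10.93 in the wild type (-1.21 ± 0.07, adjusted p = 4.14e-09), on 3 of its 6 probes.

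Several chemokines and innate immune genes were higher in the knockout. Of 30 measured chemokines 9 were higher and 3 lower. Cxcl14 read 10.11, 10.41, 10.18 and 10.21 in the knockout against 8.89, 8.99, 8.96 and 9.05 (1.26 ± 0.06, adjusted p = 1.39e-09). Ccl9 read 11.99, 11.71, 11.89 and 11.77 against 10.56, 10.36, 10.42 and 10.43 (1.39 ± 0.12). Cxcl12, the ligand of CXCR4, was among the brighter genes at 13.94 to 14.04 against 13.07, 12.90, 12.60 and 13.02 (1.09 ± 0.10), and 3 of its 5 probes were higher. The 3 lower chemokines were Ccl11, Ccl7 and Ccl8, which attract eosinophils and monocytes.

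Lbp, the carrier of bacterial lipopolysaccharide, read 10.19, 9.86, 10.00 and 9.98 in the knockout and 8.40, 8.40, 8.46 and 8.31 in the wild type (1.62 ± 0.08, adjusted p = 9.47e-10). Lcn2, which binds bacterial siderophores, read 11.48, 11.62, 11.40 and 11.54 against 10.27, 10.17, 10.11 and 9.94 (1.39 ± 0.07). Lyz1 was higher by 1.58 on 1 of its 3 probes and Lyz2 by 1.29 on 2 of 3, and lysozyme genes are near-identical copies that probes may not tell apart. Of 31 measured inflammatory and acute-phase genes, 11 were higher and 3 lower, the lower ones being Serpina3n, Il15 at -0.46 and Ptges, a prostaglandin E synthase, at -0.37. Under vehicle 7 of these 31 were higher and 1 lower, and 6 and 1 without knockout vehicle replicates 2 and 3. Il6, a cytokine that FAPs can secrete, differed by 0.04 (adjusted p = 0.25). Of 16 complement genes 6 were higher and 0 lower, among them C4b, which read 11.07, 11.01, 11.04 and 11.19 against 10.12, 9.99, 9.96 and 9.89 (1.09 ± 0.09), Serping1, the inhibitor of the first component, at 0.73 and C2 at 0.65. Under vehicle 2 complement genes were higher and 1 lower, and 1 and 0 without knockout vehicle replicates 2 and 3.

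**Figure D2:**
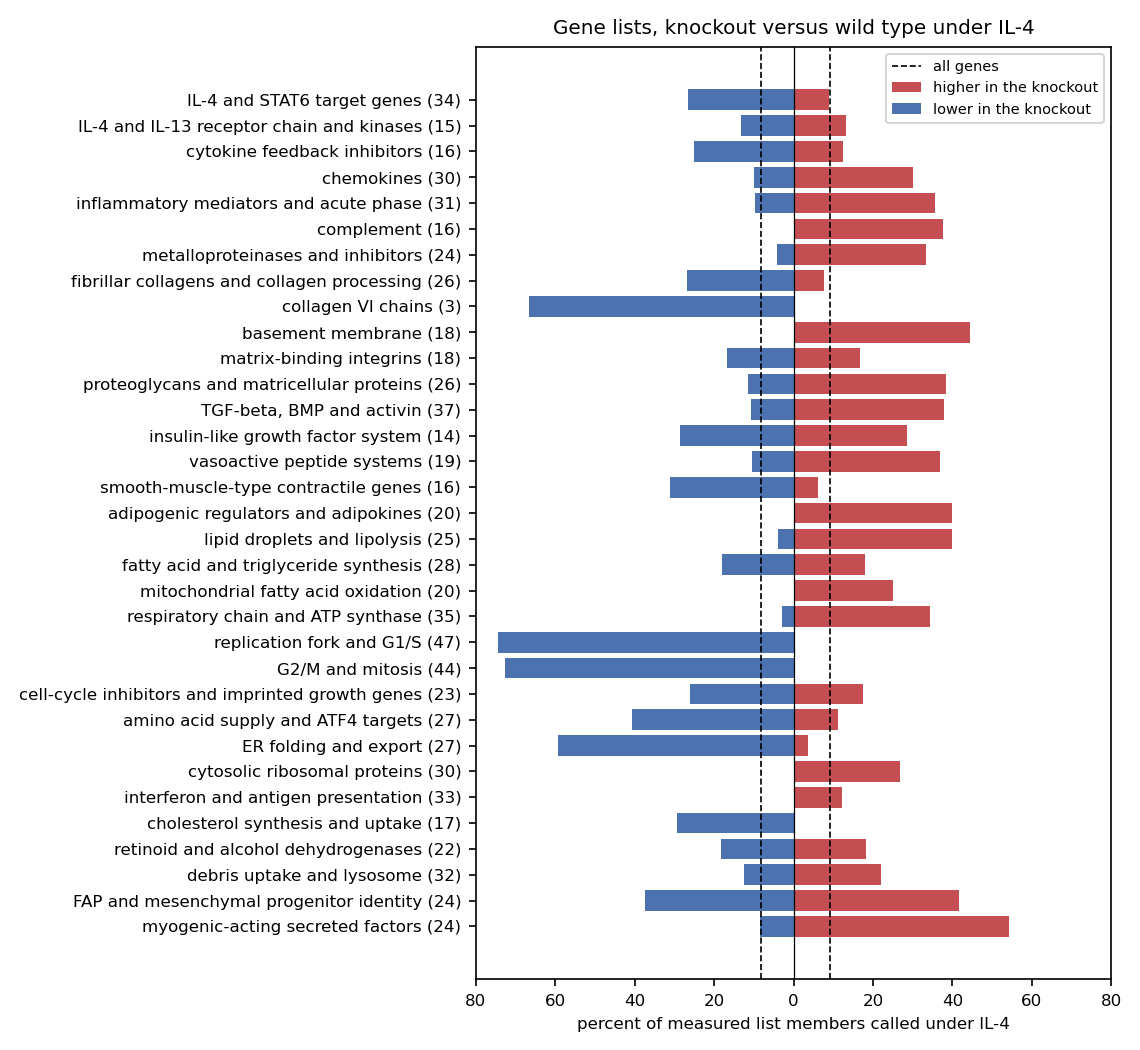
Percent of the measured members of each list (horizontal axis, list size in brackets) called higher (red, to the right) or lower (blue, to the left) in the knockout under IL-4, with dashed lines at the shares over all genes, 9.11% and 8.18%. The replication and mitosis lists held 35 of 47 and 32 of 44 lower genes and 0 higher ones. The shares over all genes include 8842 of 16593 genes near the floor.

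Genes of peptides that act on vessels were at both ends of the ranking. Kng1, the kininogen from which bradykinin is cut, read 11.84, 11.94, 11.86 and 11.98 in the knockout and 9.96, 9.82, 9.88 and 9.67 in the wild type (2.07 ± 0.06, adjusted p = 2.84e-12, 4.20-fold higher), with 2 of its 3 probes higher. Kng2, a second kininogen gene of the mouse, was higher by 1.58, and the pair are close copies. Agtr1a, a receptor for angiotensin II, read 9.81, 9.75, 9.76 and 9.59 against 8.06, 8.01, 8.09 and 8.10 (1.66 ± 0.06, adjusted p = 1e-10). Edn1, endothelin-1, read 7.93, 7.96, 7.95 and 7.90 in the knockout, just above the floor, and stood at 9.74, 9.80, 9.89 and 9.85 in the wild type (-1.88 ± 0.03, adjusted p = 2.17e-15). Of the 19 measured genes of these systems, 7 were higher and 2 lower. Under vehicle 5 were higher and 0 lower, with or without knockout vehicle replicates 2 and 3. Mme, or neprilysin, which degrades such peptides, was higher by 1.43.

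Other genes high in the knockout had varied roles. Angptl7, an angiopoietin-like secreted protein, read 9.85, 9.98, 9.92 and 10.00 in the knockout and 8.02, 8.13, 8.05 and 8.13 in the wild type (1.85 ± 0.06, adjusted p = 1.08e-11). Scara5, a scavenger receptor that takes up ferritin, read 9.79, 9.80, 9.94 and 9.90 against 8.17, 8.18, 8.19 and 8.21 (1.67 ± 0.06). Dio3, a deiodinase that removes active thyroid hormone, read 10.67, 10.63, 10.56 and 10.45 against 8.92, 9.09, 8.94 and 8.97 (1.60 ± 0.08). These genes were chosen among those whose groups did not overlap, so the lack of overlap is no further evidence. Smoc1, a calcium-binding matrix protein that modulates BMP signalling, was higher by 1.40.

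Growth factor genes differed with both signs. Of 37 measured TGF-beta, BMP and activin genes, 14 were higher and 4 lower: Fst, or follistatin, which binds activin, read 9.25, 9.25, 9.18 and 9.04 against 8.27, 8.23, 8.21 and 8.23 (0.95 ± 0.08), Bmp4 was higher by 0.85 and Ltbp3, which holds TGF-beta in the matrix, by 0.69, while Tgfbr2, a TGF-beta receptor, was lower by -0.43, a call lost in a fit of the 8 arrays alone (adjusted p = 0.0517). Of 14 genes of the insulin-like growth factor system, 4 were higher and 4 lower. Igfbp5, a binding protein of these factors, read 8.30, 8.33, 8.33 and 8.35 in the knockout and 9.94, 9.94, 10.04 and 10.06 in the wild type (-1.67 ± 0.03, adjusted p = 6.8e-14). Igfbp6 was lower by -1.25, Igfbp4 higher by 1.17, Igf1 higher by 0.70 and Igf2 higher by 0.61. Of 24 secreted factors known to act on muscle cells, 13 were higher and 2 lower, with a median of 0.16, and Fgf7 stood at 0.87.

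Of 16 measured contractile genes of the smooth-muscle type, 1 was higher and 5 lower. Mylk, the kinase of the myosin light chain, read 9.33, 9.35, 9.33 and 9.22 in the knockout and 11.31, 10.91, 11.08 and 11.10 in the wild type (-1.79 ± 0.07, adjusted p = 1.58e-10). Smtn, or smoothelin, was lower by -0.51 and Acta2, smooth muscle actin, by -0.32.

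Genes of fat cells and of mitochondria were mostly higher where they were called. Of 20 measured adipogenic regulators and adipokines, 8 were higher and 0 lower, with a median of 0.08. Adipoq, the adipokine adiponectin, read 12.90, 12.81, 12.86 and 12.73 in the knockout and 12.10, 12.32, 12.35 and 12.22 in the wild type (0.58 ± 0.08, adjusted p = 0.00017). Nr1h3, the nuclear receptor LXR alpha, was higher by 0.47 on 1 of 2 probes. Of 25 genes of lipid droplets and lipolysis 10 were higher and 1 lower, among them Fabp5, a fatty acid carrier, at 0.66 on 1 of 2 probes and Aqp7, the glycerol channel of fat cells, at 0.64. Fabp4, another fatty acid carrier of fat cells, differed by 0.05 (adjusted p = 0.26).

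Of 28 genes of fatty acid and triglyceride synthesis, 5 were higher and 5 lower. The higher ones included Dgat2, which adds the last acyl chain of triglyceride, which read 10.64, 10.65, 10.67 and 10.70 against 10.29, 9.98, 9.89 and 9.97 (0.63 ± 0.09). Of 20 genes of mitochondrial fatty acid oxidation, 5 were higher and 0 lower, and Echs1, a hydratase of that pathway, read 11.13, 11.20, 10.98 and 11.18 against 10.44, 10.44, 10.45 and 10.26 (0.73 ± 0.07). Of 35 respiratory chain and ATP synthase genes, 12 were higher and 1 lower, with a median of 0.16. Sdhb, a subunit of complex II, was higher by 0.54, and the lower one was Cox8b at -0.49. Under vehicle, the lists of fatty acid oxidation and of the respiratory chain held 0 higher genes and 4 and 5 lower ones, and the difference between conditions was called higher for 7 and 6 genes and lower for 0 in either list. Without knockout vehicle replicates 2 and 3, the lower genes under vehicle were 3 in each list, and the difference between conditions was called higher for 4 and 5.

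Of 27 measured genes of protein folding and export in the endoplasmic reticulum, 16 were lower and 1 higher, with a median of -0.19. Calr, the chaperone calreticulin, read 10.60, 10.70, 10.68 and 10.75 in the knockout and 12.06, 11.95, 11.55 and 11.68 in the wild type (-1.13 ± 0.11, adjusted p = 3.37e-06). Creld2 and Sec13 were both lower by -0.55, and Dnajb9 was the higher one at 0.35 on 1 of 2 probes, a call lost in a fit of the 8 arrays alone (adjusted p = 0.0663). Of 27 genes of amino acid supply and ATF4 targets, 11 were lower and 3 higher. Slc7a5, which imports large neutral amino acids, read 9.65, 9.78, 9.74 and 9.68 against 10.57, 10.67, 10.63 and 10.49 (-0.88 ± 0.06), and Psat1, of serine synthesis, was lower by -0.77. Of 30 measured cytosolic ribosomal proteins 8 were higher and 0 lower, led by Rpl19 at 0.47.

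Of 33 interferon and antigen presentation genes, 4 were higher and 0 lower, Gbp2, a guanylate-binding protein, leading at 1.0. The higher share, 12.1%, was near the 9.11% over all genes, so the list is not set apart. The calls of 2 of the higher genes, Ifit2 and H2-D1, were lost in 6 and 7 of 17 other settings. Of 17 cholesterol genes, 5 were lower and 0 higher, with Fdps, which makes farnesyl diphosphate, at -0.36. Of 22 retinoid and alcohol dehydrogenase genes, 4 were higher and 4 lower. Of 32 genes of debris uptake and lysosomes, 7 were higher and 4 lower, with Gas6, a bridge to dying cells, at 0.63 and Ctsb, cathepsin B, at 0.44.

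**Figure D3:**
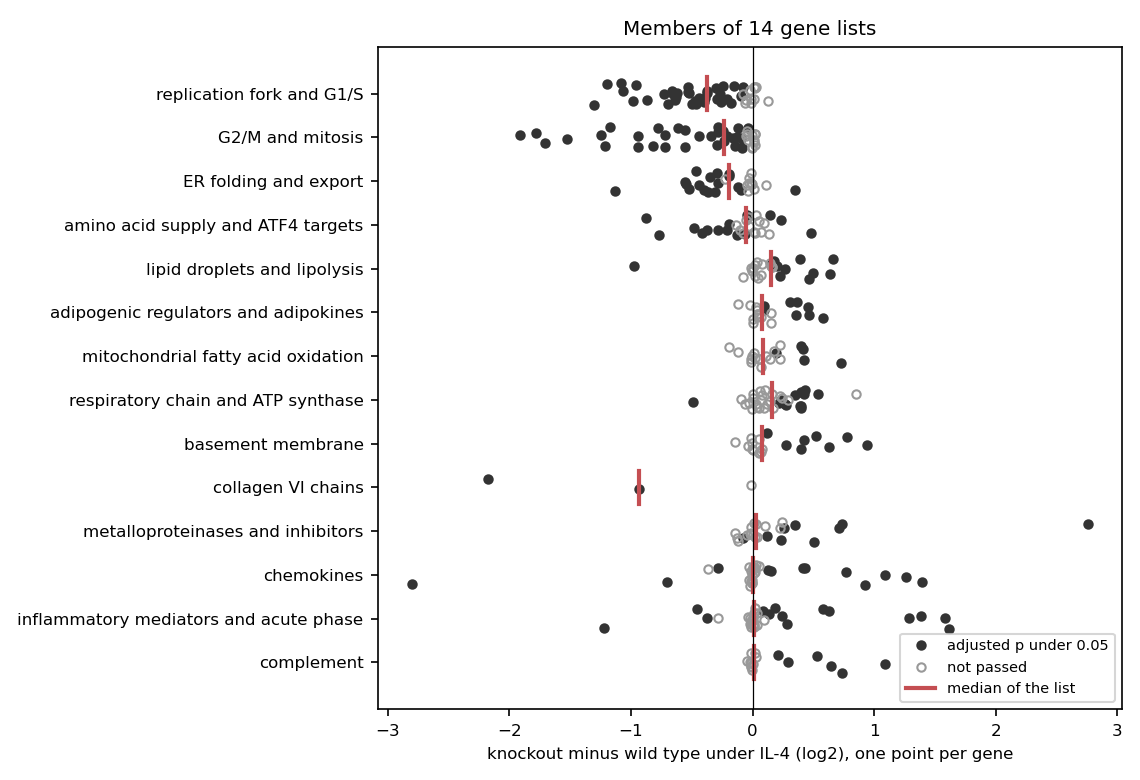
Log2 difference, knockout minus wild type under IL-4 (horizontal axis), of the measured genes of 14 lists, with 1 point per gene, filled where it passed the threshold, and a red line at each list's median. The replication and mitosis genes lay mainly below 0, with medians of -0.38 and -0.24.

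Genes that mark FAPs differed with both signs. Of 24 measured identity genes of FAPs and mesenchymal progenitors, 10 were higher and 9 lower. Pdgfra, the receptor by which FAPs are usually recognised, read 11.12, 10.76, 10.94 and 10.65 in the knockout and 9.88, 10.09, 10.16 and 10.27 in the wild type (0.77 ± 0.11, adjusted p = 0.000146), with no overlap. Cd248, or endosialin, read 10.68, 10.56, 10.67 and 10.80 against 11.23, 11.46, 11.56 and 11.68 (-0.80 ± 0.08). Vim was lower by -0.68, Thy1 by -0.64 and Cd34 by -0.16.

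The cultures were checked against the markers of their label and of other cells. Of 9 FAP and fibroblast markers, none was near the floor, and their array means were 10.31 to 10.33 in the knockout and 10.12 to 10.28 in the wild type. Of 9 myogenic markers, 6 and 7 were near the floor in the knockout and the wild type and 0 passed the test. Of 8 macrophage and leukocyte markers, 5 and 6 were near the floor, with array means of 8.10 to 8.17 and 7.92 to 7.95, and 3 (Lyz2, Cd14 and Cd74) were higher. Lyz2 differed most, at 1.29, and the median of the list was 0.02. Cd14 and Cd74 were also called higher under vehicle, by 0.24 and 0.08. The IL-4 call of Cd74 was lost in 3 of 17 other settings. Of 5 adipocyte markers, 3 (Adipoq, Plin1 and Cidec) were higher, with array means of 9.13 to 9.16 and 8.89 to 9.0. The call of Plin1 was lost in 7 of those settings. Array means of the endothelial, pericyte and tenocyte lists lay between 7.83 and 7.91 in both groups. The endothelial means did not overlap, at 7.89 to 7.91 in the knockout and 7.85 to 7.87 in the wild type, and Tek, an endothelial receptor, was higher by 0.25 and Scx, a tendon factor, by 0.06. The part of leukocyte, endothelial and adipocyte markers in the inflammatory and lipid differences was not tested.

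The vehicle arrays, which none of the IL-4 arrays share, give the genotype difference without IL-4. There, 690 probes (2.69%) were called, 304 higher (1.18%) and 386 lower (1.5%) in the knockout, and 5 were higher (0.0195%) and 0 lower by 2-fold, or 543 genes (3.27%). Without wild-type vehicle replicate 1, 2 or 4 the calls were 447, 426 and 456, and without knockout vehicle replicates 2 and 3 they were 385, of which 181 were higher and 204 lower. Of the 690, 86 were called under IL-4 in the opposite direction and 341 in the same direction, or 38 and 226 without knockout vehicle replicates 2 and 3, and the 341 are 49.4% of the vehicle calls and 8.9% of the IL-4 calls. By gene, 156 were higher in both (0.94%) and 117 lower in both (0.705%), or 103 and 67 without those arrays. By probe, 202 were higher in both (0.786%) and 139 lower in both (0.541%). The test of the difference itself called 2156 probes (8.39%), and 1833 of the 3830 IL-4 calls were among them, while 1997 were not. Without those arrays it called 1746 probes, 1522 of them also called under IL-4. A call under IL-4 alone is therefore not by itself shown to depend on IL-4.

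Several of the genes named above were not called under vehicle. Car4 differed by -0.01 there (95% interval -0.11 to 0.09, adjusted p = 0.968) and Itga11 by -0.03 (-0.15 to 0.09, adjusted p = 0.886). The vehicle arrays of Itga11 read 10.57, 10.54, 10.79 and 10.71 in the knockout and 10.68, 10.73, 10.57 and 10.77 in the wild type, so the wild type with IL-4 was the group that stood low. Aif1l read 8.0 to 8.09 in the knockout and 8.04 to 8.10 in the wild type under vehicle, so there the wild type with IL-4 was the group that stood high. For Ccl11 the vehicle difference was 0.17 (adjusted p = 0.481).

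Others differed in both conditions. Mmp3 was higher by 1.90 ± 0.08 under vehicle (adjusted p = 1.12e-08, 3.73-fold): it read 11.71, 11.69, 11.63 and 11.86 in the knockout and 9.68, 9.74, 10.09 and 9.78 in the wild type, and the IL-4 difference was larger by 0.86 ± 0.11 (adjusted p = 0.000159). Lbp was higher by 1.25 under vehicle, and the change of 0.36 between conditions was not called (adjusted p = 0.0518). Cxcl14 stood at 1.05, Pde1a, a calcium-dependent phosphodiesterase, at 0.96 against 1.10 under IL-4, and Glo1, a glyoxalase, at 0.72 against 0.99. Ces1d, a carboxylesterase, was lower by -1.0 under vehicle and by -0.98 under IL-4, and Rtf2 by -0.90 and -0.81 with all 3 probes lower. For Ces1d the difference between conditions was 0.02 (adjusted p = 0.975). Also called lower under vehicle were Col6a2 at -0.44, Cenpa at -0.39, Igfbp6 at -0.36, Tnc at -0.31, Prc1 at -0.29 and Cish at -0.16. Each of these had a called difference between conditions. The vehicle calls of Tnc, Prc1 and Cish were lost without knockout vehicle replicates 2 and 3 (adjusted p = 0.163, 0.212 and 0.137). Further genes named above were also called higher under vehicle, among them Kng1 at 0.63, Angptl7 at 0.57, Ccl9 at 0.55 and Kng2 at 0.53. Lcn2 at 0.44, C2 at 0.41 and Serping1 at 0.38 were called there too. Of these, only C2 had a difference between conditions that was not called (adjusted p = 0.317). Without knockout vehicle replicates 2 and 3 the vehicle call of C2 was lost (adjusted p = 0.064). The call of the difference between conditions for Serping1 was then lost too (adjusted p = 0.0503). Mmp13 at 0.67, Dcn at 0.52 and Mmp9 at 0.47 were also called higher under vehicle. Their differences between conditions were not called (adjusted p = 0.8, 0.245 and 0.0797).

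**Figure D4:**
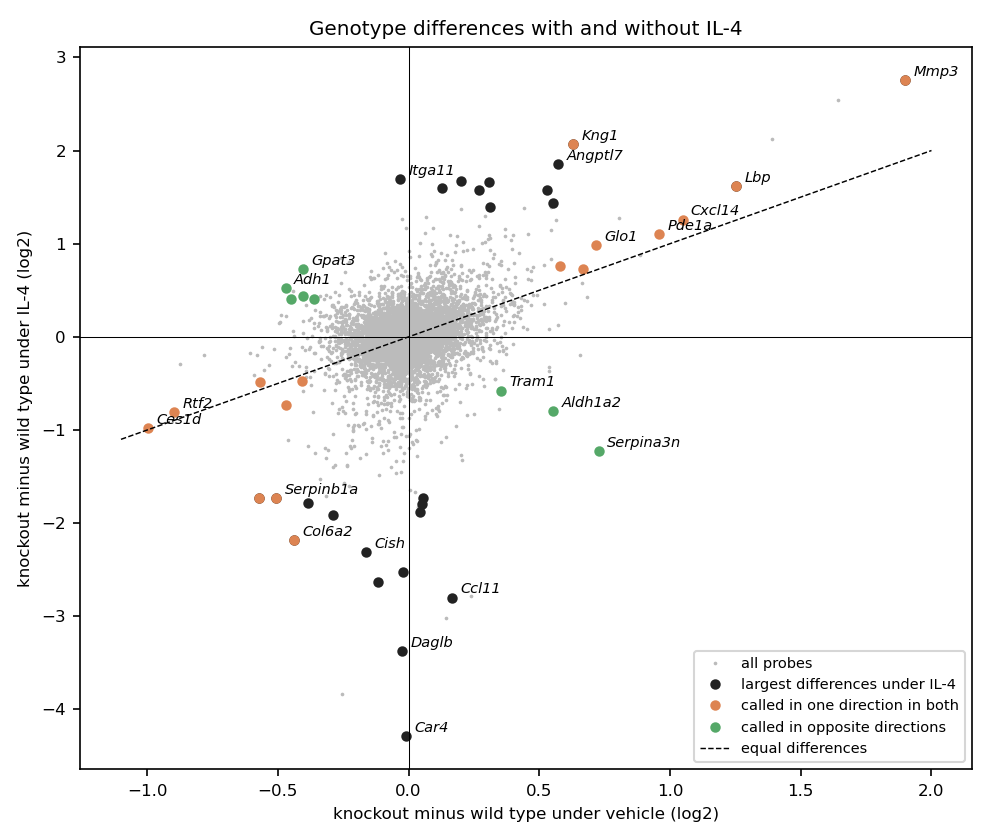
Genotype difference under vehicle against that under IL-4, both in log2 units as knockout minus wild type, with a gray point per probe, named genes coloured by how they were called, and a dashed line where the differences are equal. Mmp3 and Cxcl14 were higher in the knockout in both conditions, Car4 lay at -4.29 under IL-4 and -0.01 under vehicle, and Serpina3n had opposite signs.

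A small set differed with opposite signs. By gene, 55 were called higher under IL-4 and lower under vehicle (0.331%) and 17 the reverse (0.102%), or 28 and 7 without knockout vehicle replicates 2 and 3. Serpina3n, an acute-phase protease inhibitor, read 11.71, 11.76, 11.63 and 11.83 in the knockout and 12.83 to 13.07 in the wild type under IL-4, and 11.79, 11.86, 11.80 and 11.66 against 11.14, 11.10, 11.05 and 10.91 under vehicle. The knockout arrays of both conditions overlapped, with the wild type above them under IL-4 and below them under vehicle (-1.22 and 0.73, difference -1.95, adjusted p = 2.11e-09). Aldh1a2, which makes retinoic acid, had the same signs (-0.79 and 0.55). Adh1, an alcohol dehydrogenase, was higher by 0.52 under IL-4 and lower by -0.47 under vehicle, and Gpat3, which starts triglyceride synthesis, stood at 0.73 and -0.40. Mgst3, Adig and Col15a1 were likewise higher under IL-4 and lower under vehicle, and Tram1, of protein translocation, the reverse. In a fit of the vehicle arrays alone, the vehicle calls of Gpat3 and Adig were lost (adjusted p = 0.0754 and 0.0593), and that of Adig was kept in 2 of 8 fits without 1 vehicle array. With a replicate block added to the fit of the vehicle arrays, those of Adh1 and Tram1 were lost too (adjusted p = 0.113 and 0.0823). The vehicle call of Gpat3 was also lost without knockout vehicle replicates 2 and 3 (adjusted p = 0.101), and those of the other 7 genes were kept.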

How the data were processed

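RNA of cultured FAPs was hybridised to 16 MouseRef-8 v2.0 BeadChip arrays, 4 per group, per the labels. The authors deposited 1 value per probe and array, on a log2 scale as judged from the values. The sorted values of all arrays agree to 0.00059, so the deposited log2 values are quantile-normalized; no further normalization was applied. The chip of each array and the software are not given in the sources used here. Probes were named from the platform annotation: 23978 have 1 symbol, 1719 have none and are left unnamed, and 23962 matched RefSeq by Entrez identifier.

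A model with a mean for each group was fitted over the 16 arrays with limma 3.58.1 in R 4.3.3 (12 residual degrees of freedom), with Benjamini-Hochberg adjustment over all 25697 probes and a threshold of 0.05. Errors are SE of a difference unless marked SD. The probe brightest over the 16 arrays stands for a gene. The fit was tested on simulated data. Named genes are those furthest apart under IL-4 with groups that do not overlap (up to 12 higher and 14 lower), up to 8 in each direction called alike in both conditions, up to 8 called with opposite signs, up to 3 in each direction per list, and a fixed set of 15; list members beyond these were chosen after their values were seen. The members and lists were chosen with earlier results of these data known. Promoters came from RefSeq (GRCm38.p6), for 13336 of 16593 genes. Figures used matplotlib 3.10.9. The number of arrays, 4 per group, limits the precision. Other normalizations, filters, thresholds, fits and left-out arrays were tried.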

Additional observations from a re-analysis of the deposited data

Results flagged for a closer look

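Among the named genes, 350 sets of 4 arrays were examined for 1 array far from the rest, and 10 met the limit; chance flags about 1 in 20. In the knockout with IL-4, Myc was lowest in replicate 2 at 8.01, Ndufv2 was lowest in replicate 3 at 11.98, Socs1 was lowest in replicate 1 at 7.77, and replicate 3 was highest for Abhd5 at 10.10 and for Plin1 at 9.01. In the wild type with IL-4, replicate 7 was lowest for Bmp1 at 11.68 and for Igfbp4 at 12.45, replicate 5 for Tgfbr2 at 10.34 and for Rpl10 at 13.24, and replicate 8 for Echs1 at 10.26. For Tgfbr2 the other 3 arrays read 10.84 to 10.91.

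The test of the difference between conditions called 111 of the 175 named genes, and 11 of these were called in opposite directions under IL-4 and under vehicle. Given as the IL-4 difference minus the vehicle difference, the value was -1.95 for Serpina3n, -1.35 for Aldh1a2, -1.13 for Bmp1, -0.93 for Tram1 and -0.78 for Itgb5. It was 1.13 for Gpat3, 0.99 for Adh1, 0.86 for Mgst3, 0.84 for Adig, 0.76 for Col15a1 and 0.36 for Aldh3a1. Without knockout vehicle replicates 2 and 3, the vehicle calls of Gpat3, Bmp1 and Itgb5 were lost (adjusted p = 0.101, 0.232 and 0.0601).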

How the results depend on the processing

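The count of 3830 probes called under IL-4 was 3516 from the 8 arrays of the comparison alone, 4023 with a trended robust prior and 4177 among 12040 probes past a filter on dim ones. With 1 array left out it was 3227 to 3676, with 1613 to 1844 higher and 1614 to 1832 lower. At an adjusted p below 0.01 it was 2597, of which 1256 were higher, and calls past 1.5-fold numbered 393, 184 higher and 209 lower. Of 175 named genes, 171 had a value under all 17 settings, and 153 of these kept their side of the threshold. Filters on dim probes left out the other 4, of which 2 kept their side where tested. In all, 20 lost the call under at least 1 setting, among them Socs1, Ccl8, Jak2, Plin1 and Tgfbr2; 0 reversed. With the median probe of a gene, the list medians were -1.33 for collagen VI, -0.23 for replication and -0.13 for mitosis.

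The compared groups share no replicate number, so only a random replicate block could be fitted, which gave 3826 calls. That block joined only knockout vehicle and knockout IL-4 arrays with the same number, at a correlation of -0.015. None of the 8 compared arrays shared a block with another, so this count cannot show whether replicate structure affects the comparison. In the vehicle groups, same-numbered arrays deviated with correlations of -0.08 to 0.05. The knockout titles use the same numbers under vehicle and IL-4, with correlations of -0.23 to 0.15, while the wild-type titles share none. Such correlations do not show whether same-numbered arrays came from the same animals, which the titles do not state. Whether shared knockout animals affect the same-direction count or the difference between conditions was not tested. With each difference fitted on its own 8 arrays, the count of same-direction calls was 235 in place of 341 and the vehicle calls 532 in place of 690, and with a replicate block added to that vehicle fit they were 180 and 354. Under the replicate block the vehicle calls of Adh1 (adjusted p = 0.113), Tram1 (0.0823), Gpat3 (0.0823) and Adig (0.0698) were lost, also those of Col6a2, Cxcl5, Gsn and H2ac24. Without knockout vehicle replicates 2 and 3, left out after seeing the data, the count of same-direction calls was 226. With 1 vehicle array left out it was 228 to 296, and with 1 IL-4 array left out 290 to 353. The vehicle calls were 447, 426 and 456 without wild-type vehicle replicate 1, 2 or 4. The cause was not tested.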
